A study of Mus musculus with 6 samples.

Results

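Sensory neurons of the dorsal root ganglion (DRG) take on and keep their identity under a small set of transcription factors, and 10 of these were followed here: Isl1, Pou4f1, Pou4f2, Runx1, Runx3, Prdm12, Shox2, Etv1, Drgx and Tlx3. They were chosen by name, for their known roles, out of 22064 gene rows, of which 19306 hold values. Of the 10 genes, 9 were found by symbol, and Drgx was found by gene ID under its older symbol Prrxl1. All 10 hold values in every library and passed the filter on low values.

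The libraries came from ipsilateral L3 to L5 DRG of wild-type C57BL/6 mice aged 6 to 8 weeks, taken on day 14 after surgery, with 3 libraries per group. In the lateral ankle sprain (LAS) model the anterior talofibular and the calcaneal fibular ligaments were cut, whereas sham mice had the skin incision alone. Nothing says how many animals, or of which sex, went into a library, so a p-value here speaks only of the spread among these 6 libraries, which may be technical. Levels are in FPKM, fragments scaled to transcript length and to the mapped fragments of the library, so that genes can be set in order. The ganglion is a mixture of cells, and fewer cells of a type and less RNA per cell cannot be told apart in such samples. In the whole table the library of sham replicate 3 was far from the others, at 47.6 on the first principal component. The other libraries ran there from -20.1, in sham replicate 1, to 7.97, in LAS replicate 1. It held the highest value of all 8 neutrophil and marrow markers, among them S100a8, a neutrophil protein, at 549.93 FPKM. The sum of these markers was 2177 FPKM there, 438 FPKM in LAS replicate 1 and 71.6 to 270 FPKM in the remaining libraries. Sham replicate 3 was also the highest library for all 4 skeletal muscle markers, with Acta1, muscle actin, at 522.82 FPKM and at most 61.88 FPKM elsewhere.

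As background, Isl1 (a LIM homeodomain factor) and Pou4f1 (also called Brn3a, a POU factor) act in nearly all sensory neurons, where they end the program of the dividing precursor and open the programs of the subtypes. Runx1 and Prdm12 act in nociceptors, the neurons for pain and temperature, while Runx3 and Etv1 act in proprioceptors, which report muscle stretch, and Shox2 acts in touch neurons. Several of these genes stay on in the adult ganglion and help to keep the identity of its neurons.

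To show what lies upstream of some of these genes, 4 promoters follow, each given as the 250 bases before the RefSeq start on GRCm38.p6, 5′ to 3′ on the strand of the gene. Runx3 and Etv1 had nearly the same order of levels over the libraries, and Isl1 and Tlx3 had the smallest p between the groups, though none was called. For the first pair, capitals mark the RUNX motif TGTGGT or its other strand ACCACA. The promoter of Runx3 is at chr4:135120395-135120644 on the plus strand, the first of 2 listed, and that of Etv1 at chr12:38779832-38780081 on the plus strand, also the first of 2. For the second pair, capitals mark the homeodomain core TAAT or its other strand ATTA, with the promoter of Isl1 at chr13:116309689-116309938 and that of Tlx3 at chr11:33203589-33203838, both on the minus strand.
Runx3: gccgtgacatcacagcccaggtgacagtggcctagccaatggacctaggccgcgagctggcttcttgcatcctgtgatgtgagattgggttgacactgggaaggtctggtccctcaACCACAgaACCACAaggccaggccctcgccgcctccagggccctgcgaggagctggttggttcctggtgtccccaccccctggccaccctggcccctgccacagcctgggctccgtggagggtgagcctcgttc
Etv1: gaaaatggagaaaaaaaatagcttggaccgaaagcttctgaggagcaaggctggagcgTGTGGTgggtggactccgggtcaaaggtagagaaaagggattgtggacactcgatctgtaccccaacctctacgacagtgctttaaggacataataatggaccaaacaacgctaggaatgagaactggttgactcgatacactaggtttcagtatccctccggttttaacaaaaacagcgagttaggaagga
Isl1: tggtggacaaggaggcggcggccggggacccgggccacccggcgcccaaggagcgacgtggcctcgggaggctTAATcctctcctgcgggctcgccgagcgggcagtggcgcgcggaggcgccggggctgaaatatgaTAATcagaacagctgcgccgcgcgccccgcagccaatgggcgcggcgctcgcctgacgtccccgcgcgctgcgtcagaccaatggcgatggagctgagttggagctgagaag
Tlx3: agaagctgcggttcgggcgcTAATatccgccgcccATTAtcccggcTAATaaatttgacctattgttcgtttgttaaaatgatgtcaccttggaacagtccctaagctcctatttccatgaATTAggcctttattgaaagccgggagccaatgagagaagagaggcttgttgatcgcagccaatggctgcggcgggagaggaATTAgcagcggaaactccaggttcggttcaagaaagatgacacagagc

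RefSeq lists 13 promoters for the 10 genes. The RUNX motif was found in 3 of the 13, those of Runx3, Etv1 and Drgx, and in 14.0% of all 32851 promoters of this length. The first promoter of Runx3 held 2 matches, which start 134 and 126 bases before the start of transcription. That of Etv1 held 1 at 192 bases, and the promoter of Drgx held 1 at 241 bases. The second promoters of Runx3 and Etv1 held no match. The homeodomain core was found in 6 of the 13 promoters and in 54.9% of all promoters, with 5 matches in that of Tlx3 and 2 in that of Isl1. Both strands were searched and overlapping matches were counted. GC content of the 13 ranged from 44.4% to 78.8%, against a median of 52.4% over all promoters. A match of letters is not a measured binding site.

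The 10 genes spanned a wide range of levels, with Prdm12 the highest and Pou4f2 the lowest. Prdm12 averaged 109 FPKM over the 6 libraries, Tlx3 61.6 FPKM, Pou4f1 51.3 FPKM, Drgx 49.3 FPKM, Isl1 35.9 FPKM and Etv1 33.1 FPKM. Below them lay Runx1 at 12.0 FPKM, Shox2 at 10.8 FPKM, Runx3 at 7.57 FPKM and Pou4f2 at 5.06 FPKM. The level of Prdm12 exceeded that of 95.3% of the tested genes, and that of Pou4f2 exceeded 35.8%. Of the 9 neighbouring pairs in this order, 4 overlapped in their ranges, namely Tlx3 with Pou4f1, Pou4f1 with Drgx, Isl1 with Etv1 and Runx1 with Shox2. The ranges of the other 5 pairs did not overlap, and the widest step was from Etv1 to Runx1, a ratio of 2.76 in mean level.

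**Figure D1:**
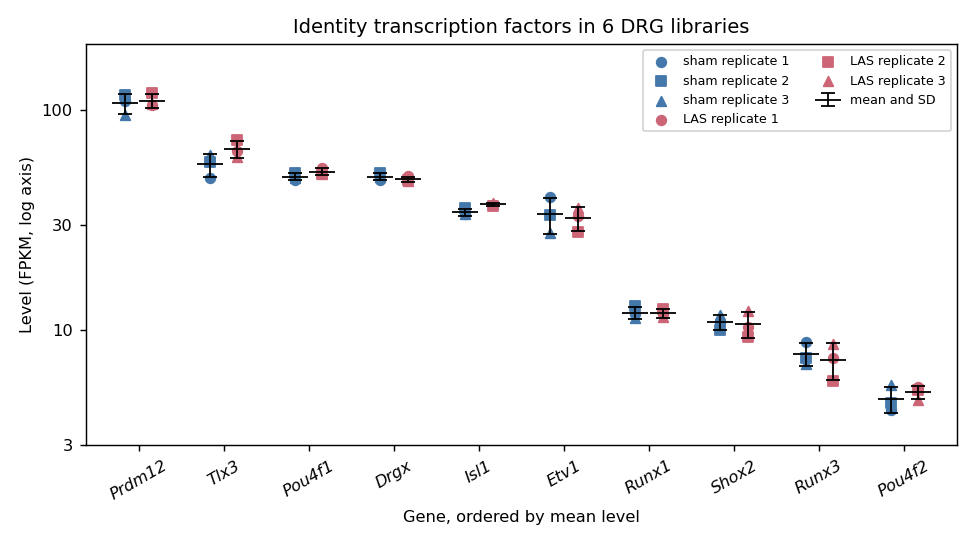
Level of the 10 transcription factors (FPKM, log axis) in the 3 sham libraries (blue) and the 3 LAS libraries (red), with black bars for the group mean and its SD. Prdm12 lies between 95.6 and 120 FPKM in all 6 libraries, above the other 9 genes, and Pou4f2 between 4.34 and 5.63 FPKM.

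The next question was whether the levels of these factors differed between LAS and sham mice on day 14. None of the 10 genes passed the test. Differences are given as log2 fold changes, LAS minus sham, on the log2(FPKM + 0.1) scale from limma, with p adjusted by Benjamini-Hochberg over all 14006 tested genes, and a gene was called at an adjusted p up to 0.05 with at least a 1.5-fold difference. Of the 10 genes, 0 were called, as were 0% of the genes tested, and 0 had an unadjusted p of at most 0.05, against 495 genes or 3.53% of those tested. The smallest adjusted p in the whole table was 0.862, and all 10 genes had an adjusted p of 1.00. The log2 fold change was above 0 in 5 and below 0 in 5, with a median of 0.02 against 0.00 over all tested genes. Their median absolute log2 fold change was 0.06, against 0.07 over all tested genes.

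The broadly expressed factors come first. Isl1, which sensory neurons of nearly all types express, measured 33.67, 35.81 and 33.81 FPKM in the 3 sham libraries, in the order of replicates 1 to 3, and 37.14, 36.91 and 37.93 FPKM in the 3 LAS libraries. All LAS libraries thus lay above all sham libraries, with means of 34.4 ± 1.20 FPKM in sham and 37.3 ± 0.535 FPKM in LAS (SD, n = 3 each). The log2 fold change of Isl1 was 0.12 (standard error 0.05, 95% interval -0.00 to 0.24), a level 8.43% higher, and limma gave an unadjusted p of 0.0574 and an adjusted p of 1.00. Isl1 was the 1 gene of the 10 whose groups did not overlap with LAS higher, which holds for 5.89% of all tested genes. For LAS lower it was 0 of the 10, against 3.81% of all tested genes.

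Pou4f1, the POU factor that works beside Isl1, measured 48.22, 52.09 and 49.47 FPKM in sham and 54.73, 51.48 and 51.52 FPKM in LAS libraries. The groups overlapped, since sham replicate 2 lay above LAS replicates 2 and 3, and the log2 fold change was 0.07 (standard error 0.06). Drgx, a paired homeodomain factor that nociceptors need to reach the dorsal horn, measured 48.01, 51.82 and 49.84 FPKM in sham and 50.03, 48.20 and 47.74 FPKM in LAS libraries. Sham replicate 2 was the highest and LAS replicate 3 the lowest, with a log2 fold change of -0.04 (standard error 0.05). These factors were among the steadiest genes in the table. Only 3.35% of tested genes had a smaller SD between libraries of a group than Isl1, 6.05% than Drgx and 9.32% than Pou4f1. This comparison was not matched for level, which exceeded that of 83.5% of tested genes for Isl1, 88.3% for Drgx and 88.8% for Pou4f1.

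Tlx3, a homeodomain factor of glutamatergic neurons and of some nociceptor subtypes, showed the largest log2 fold change of the 10 genes. It measured 49.43, 58.06 and 62.68 FPKM in sham and 65.09, 73.02 and 61.30 FPKM in LAS libraries. LAS replicate 3 lay below sham replicate 3, so the groups overlapped. The mean was 56.7 ± 6.73 FPKM in sham and 66.5 ± 5.98 FPKM in LAS (SD, n = 3 each), with a log2 fold change of 0.23 (standard error 0.10, 95% interval -0.02 to 0.48) and an unadjusted p of 0.0625 from limma. Leaving out sham replicate 3 moved it to 0.31 (unadjusted p = 0.0142, adjusted p = 0.404 from limma), and leaving out sham replicate 1 moved it to 0.14.

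Of the nociceptor factors, Prdm12, a PRDM family regulator without which nociceptors do not form, measured 109.58, 117.62 and 95.61 FPKM in sham and 105.46, 119.97 and 106.21 FPKM in LAS libraries. Sham replicate 3 was the lowest and LAS replicate 2 the highest, the groups overlapped, and the log2 fold change was 0.04 (standard error 0.09), turning to -0.04 without sham replicate 3 and to -0.02 without LAS replicate 2. Runx1, which sets the nonpeptidergic nociceptor program, measured 11.82, 12.85 and 11.37 FPKM in sham and 11.88, 12.49 and 11.46 FPKM in LAS libraries. Its values in the groups nearly coincided, with a log2 fold change of -0.01 (standard error 0.07), and without 1 library it ran from -0.05 without sham replicate 3 to 0.04 without sham replicate 2.

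The factors of touch and stretch neurons follow. Runx3, which proprioceptors need, measured 8.83, 7.52 and 7.06 FPKM in sham and 7.49, 5.88 and 8.65 FPKM in LAS libraries. Etv1, an ETS factor by which proprioceptors reach motor neurons, measured 40.31, 33.31 and 27.64 FPKM in sham and 33.11, 28.03 and 35.99 FPKM in LAS libraries. For both genes sham replicate 1 was the highest library and LAS replicate 3 the second, and the groups overlapped widely. The log2 fold change was -0.10 (standard error 0.15) for Runx3 and -0.05 (standard error 0.15) for Etv1. Single libraries moved both values in either direction. That of Runx3 was -0.22 without LAS replicate 3, -0.17 without sham replicate 3 and 0.05 without LAS replicate 2. That of Etv1 was -0.19 without sham replicate 3, -0.13 without LAS replicate 3, 0.05 without LAS replicate 2 and 0.09 without sham replicate 1.

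Shox2, a homeodomain factor of low-threshold touch neurons, measured 10.84, 10.06 and 11.75 FPKM in sham and 10.39, 9.35 and 12.20 FPKM in LAS libraries. The LAS libraries held both its lowest and its highest value, and the log2 fold change was -0.04 (standard error 0.11), turning to 0.02 without sham replicate 3 and to 0.05 without LAS replicate 2. Pou4f2, a relative of Pou4f1 best known from retinal ganglion cells, measured 4.34, 4.67 and 5.63 FPKM in sham and 5.53, 5.36 and 4.82 FPKM in LAS libraries. Sham replicate 3 held the highest value, and the log2 fold change of 0.11 (standard error 0.12) was 0.21 without that library and 0.03 without sham replicate 1. The share of tested genes with a smaller SD was 81.3% for Etv1, 80.8% for Runx3, 64.0% for Shox2, 62.6% for Tlx3, 62.3% for Pou4f2, 53.2% for Prdm12 and 22.4% for Runx1.

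The size of a difference that these libraries leave possible can be read from the intervals. For all 10 genes the 95% interval of the difference lay within a fold of 1.5 in either direction, and for 6 of them within a fold of 1.3. The widest was that of Runx3, from -0.46 to 0.26 on the log2 scale, and one of the narrowest that of Drgx, from -0.16 to 0.09. A p above the threshold does not show that the levels were equal.

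**Figure D2:**
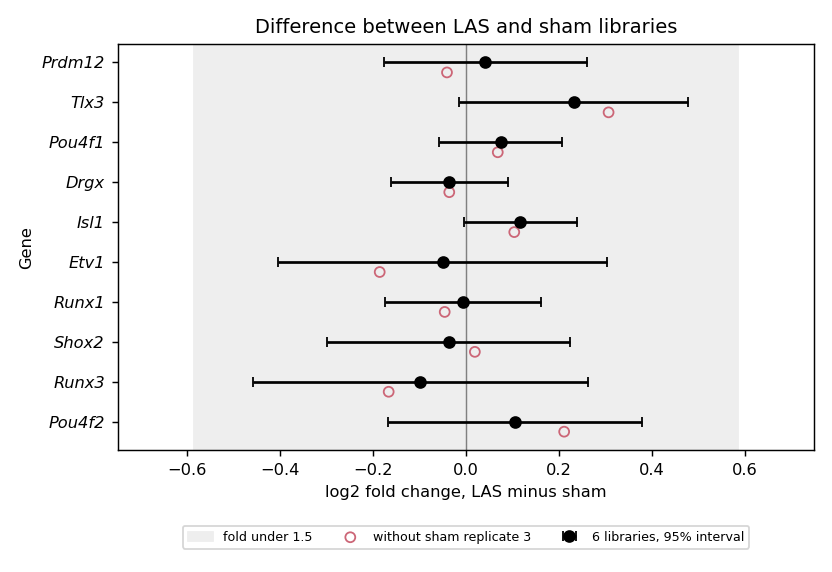
Log2 fold change of each transcription factor (LAS minus sham, log2 of FPKM + 0.1), with black points and 95% intervals from the limma fit of 6 libraries and open red circles for the value without sham replicate 3. Every interval includes 0 and lies inside the grey band of folds under 1.5, and the value of Tlx3 moves from 0.23 to 0.31 without that library.

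Single libraries held the extreme values of several factors, in both groups. LAS replicate 2 was the highest library for Prdm12 and Tlx3 and the lowest for Runx3 and Shox2. Relative to its mean over the 6 libraries, Runx3 was at -0.35 on the log2 scale in LAS replicate 2, whereas Tlx3 was at 0.25 there. Sham replicate 1 was the lowest library for 4 genes, Isl1, Pou4f1, Pou4f2 and Tlx3, and the highest for Runx3 and Etv1. From highest to lowest, Runx3 and Etv1 shared the first 4 places, sham replicate 1, LAS replicate 3, sham replicate 2 and LAS replicate 1. As a set, the 12 genes listed for mechanoreceptors and proprioceptors did not share this order. Within that list Whrn, Slc17a7 and Ntrk3, named after their values were seen, also had sham replicate 1 highest and LAS replicate 3 second. Nefh, the heavy neurofilament subunit, was highest in LAS replicate 3 (1179 FPKM) and lowest in LAS replicate 2 (941 FPKM), but 4 of the 12 were highest in sham replicate 3, among them Spp1, osteopontin, at 166.91 FPKM. The part of the share of large neurons in these values was not tested.

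**Figure D3:**
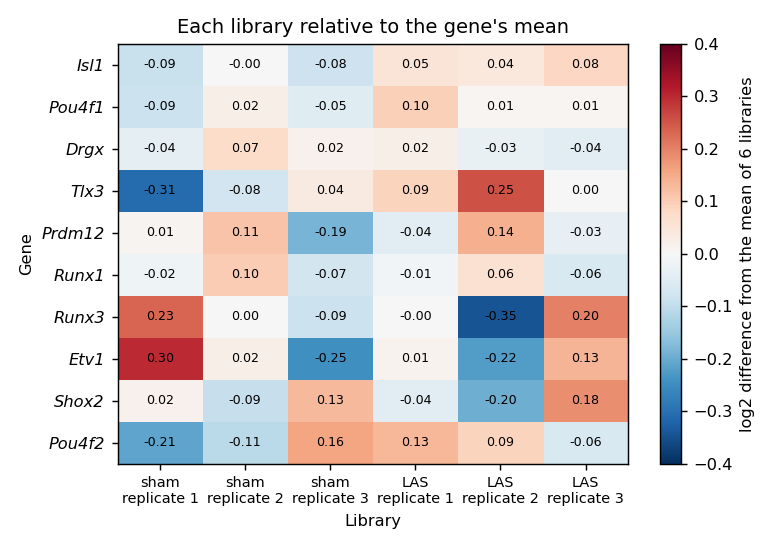
Level of each transcription factor in each library relative to the mean of the gene over the 6 libraries (log2 difference, red above and blue below). LAS replicate 2 is at 0.25 for Tlx3 and at -0.35 for Runx3, and sham replicate 1 is at -0.31 for Tlx3 and at 0.30 for Etv1.

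Ratios of the factors within a library do not depend on how libraries were scaled to each other. Runx1 exceeded Runx3 in every library, by a ratio of 1.32 in LAS replicate 3 and 2.11 in LAS replicate 2, and the groups overlapped. Etv1 exceeded Runx3 by a ratio of 3.87 to 4.70, a narrower spread, and Pou4f1 exceeded Pou4f2 by a ratio of 8.65 to 10.9. Of the 45 pairs among the 10 genes, 3 had ratios that did not overlap between the groups, which is 6.67%, against 9.30% of the 98077015 pairs of tested genes. All 3 include Drgx, set against Pou4f1, Tlx3 and Isl1. The log2 ratio of Pou4f1 over Drgx was 0.0063, 0.0075 and -0.011 in sham replicates 1, 2 and 3 and 0.13, 0.095 and 0.11 in LAS replicates 1, 2 and 3. The difference was 0.11 on the log2 scale.

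**Figure D4:**
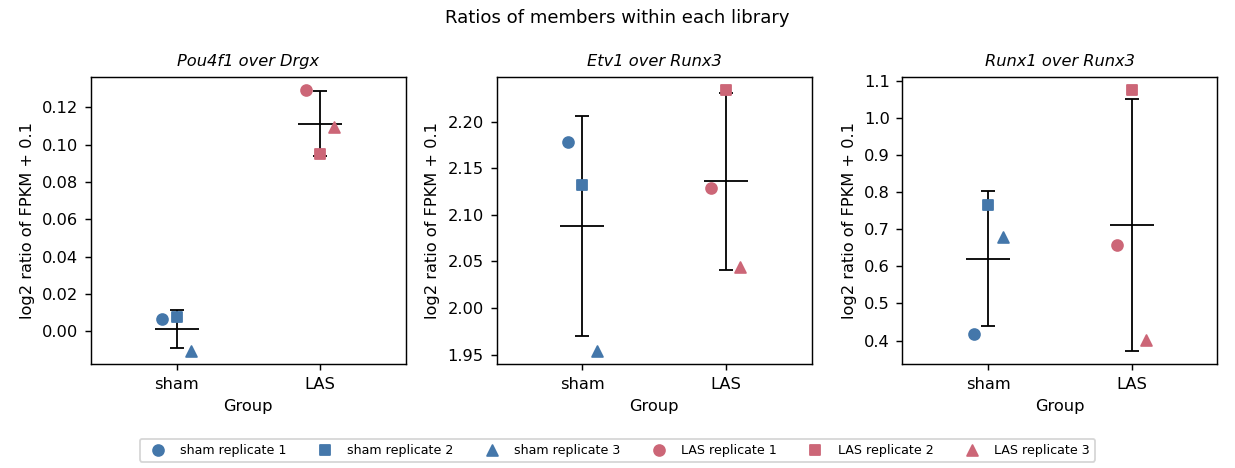
Log2 ratios of pairs of transcription factors within each library (log2 of FPKM + 0.1), by group, with black bars for the group mean and SD and a separate axis range in each panel. Pou4f1 over Drgx is 0.095 or more in the LAS libraries and at most 0.0075 in the sham libraries, while the groups overlap for Etv1 over Runx3 and for Runx1 over Runx3.

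Partners and relatives of these factors were read from the same fit. Of the 18 genes listed, 17 were tested and 0 were called, 9 lay above 0 and 8 below, with a median log2 fold change of 0.02. Isl2, the relative of Isl1, measured 98.02, 110.04 and 105.63 FPKM in sham and 117.19, 129.72 and 109.68 FPKM in LAS libraries. Sham replicate 2 lay above LAS replicate 3, and the log2 fold change was 0.18 (standard error 0.08, unadjusted p = 0.0548 from limma). Tlx2, the relative of Tlx3, measured 46.96, 57.28 and 67.04 FPKM in sham and 72.09, 80.39 and 73.02 FPKM in LAS libraries, with no overlap. Its log2 fold change was 0.41 (standard error 0.13, unadjusted p = 0.0142, adjusted p = 1.00 from limma), and 0.53 without sham replicate 3. Tlx2 was the 1 gene of the 17 at an unadjusted p of at most 0.05, a cut that 3.53% of all tested genes met. Cbfb, the binding partner shared by the Runx factors and named here after its values were seen, averaged 53.1 ± 2.28 FPKM in sham and 58.4 ± 4.10 FPKM in LAS (SD, n = 3 each), with a log2 fold change of 0.14. The third Tlx gene, Tlx1, also named after its values were seen, did not pass the filter.

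A wider list held 26 other transcription factors of sensory neurons, of which 23 were tested and 0 called. Their median log2 fold change was 0.03, with 14 above 0 and 9 below, and 0 had an unadjusted p of at most 0.05. Scrt1 and Scrt2, zinc finger repressors of neurons, were the most abundant, with Scrt1 at 52.5 ± 4.33 FPKM in sham and 53.7 ± 3.96 FPKM in LAS (SD, n = 3 each). The log2 fold change was 0.03 for Scrt1 and 0.01 for Scrt2. Onecut2, a homeodomain factor, was the 1 gene of the 23 whose groups did not overlap, with LAS higher and a log2 fold change of 0.18, against 5.89% of all tested genes.

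Genes that mark the neuron types governed by these factors were compared in the same way. All 12 nociceptor genes were tested and 0 were called, with 5 above 0, 7 below and a median log2 fold change of -0.00. Calca, the precursor of the peptide CGRP, was at 915 ± 71.9 FPKM in sham and 911 ± 40.3 FPKM in LAS (SD, n = 3 each). Scn10a, a sodium channel of nociceptors, was at 179 ± 32.1 FPKM in sham and 177 ± 14.1 FPKM in LAS (SD, n = 3 each). All 12 genes of mechanoreceptors and proprioceptors were tested and 0 were called, with 8 above 0, 4 below and a median of 0.03. Nefh had a log2 fold change of 0.04, and Spp1 one of -0.07, which became 0.16 without sham replicate 3.

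Genes that injured sensory neurons are known to induce gave 0 calls among 10, with 4 above 0, 6 below and a median of -0.01. Jun, a transcription factor, was at 49.4 ± 1.99 FPKM in sham and 48.8 ± 3.88 FPKM in LAS (SD, n = 3 each). Sprr1a, a growth cone protein of regenerating axons, ranged from 16.67 to 36.53 FPKM in sham and from 3.43 to 37.89 FPKM in LAS libraries. Of the 13 genes listed as general neuronal markers, 0 were called. The log2 fold change was -0.02 for Uchl1, a neuronal ubiquitin hydrolase, and 0.01 for Nefl, the light neurofilament subunit. The summed level of this list was 11350 to 11720 FPKM in sham and 11220 to 11780 FPKM in LAS libraries.

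Runx1, which blood cells also express, was at its lowest in sham replicate 3, the library rich in marrow and muscle transcripts, at 11.37 FPKM, and so were Prdm12 and Etv1. Pvalb, a proprioceptor gene that muscle also expresses, named once its values were known, was at 243.23 FPKM there and at most 90.55 FPKM elsewhere. The summed level of 7 macrophage markers, C1qa the highest, was 24.5 to 56.2 FPKM in sham and 28.9 to 31.9 FPKM in LAS libraries. Megakaryocyte markers, Pf4 the highest, summed to 33.1 FPKM in LAS replicate 1, 30.2 FPKM in sham replicate 3 and 7.3 to 11.5 FPKM in the remaining libraries. Of 7 T and NK cell markers, Ccl5 the highest, only 2 passed the filter, and no value exceeded 2.95 FPKM.

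Markers of the other resident cells of the ganglion overlapped between the groups for most genes. Fabp7, a satellite glia gene named once its values were known, was at 116 to 156 FPKM in sham and at 68.3 to 80.8 FPKM in LAS libraries, while Glul, the most abundant of the 4 satellite glia markers, was at 143 ± 5.33 FPKM in sham and 150.0 ± 10.6 FPKM in LAS (SD, n = 3 each). Summed over the 4, the level was 297 to 322 FPKM in sham and 254 to 263 FPKM in LAS libraries. However, Fabp7 was the 1 gene of the 4 whose groups did not overlap. A lower LAS group without overlap was found for 3.81% of all tested genes. With an adjusted p of 0.9998 by limma, Fabp7 was not called. The log2 fold change was above 0 in 2 of the 4 markers and below 0 in 2, with a median of 0.00. The part of satellite glia in the levels of the 10 genes was not tested. Markers of fibroblasts, led by Dcn, summed to 304 to 430 FPKM in sham and 275 to 389 FPKM in LAS libraries. All 4 had a log2 fold change below 0, and 1 did not overlap between the groups, with LAS lower. Markers of endothelium, led by Cldn5, summed to 22.4 to 28.3 FPKM in sham and 24.7 to 36.3 FPKM in LAS libraries. All 4 lay above 0, and 1 did not overlap, with LAS higher, against 5.89% of all tested genes. In both lists 0 genes were called. Markers of other neurons were low. Pax2 of the spinal dorsal horn was at 0.67 to 0.88 FPKM, Slc5a7 of motor neurons at most 0.45 FPKM and Dbh of sympathetic neurons at most 0.09 FPKM.

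The genes whose profile over the 6 libraries was most like the mean profile of Isl1, Pou4f1, Prdm12, Drgx and Tlx3 were sought among 12989 genes of at least 1 FPKM on average. Elmod3 was the nearest, with a root mean square difference of 0.012 on the log2 scale, followed by Sh3yl1 at 0.016 and Tle1 at 0.020. The mean profile was lowest in sham replicate 1, at -0.10, and highest in LAS replicate 2, at 0.083. With 6 libraries and this many genes, such a likeness is a description.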

How the data were processed

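RNA of ipsilateral DRG on day 14 was measured in 6 libraries, 3 sham and 3 LAS. The reads were sequenced on a BGISEQ-500 and aligned to the mouse genome, and the authors deposited FPKM values per gene, rounded to 2 decimals. FPKM is scaled to gene length and library size. The paper lists nearly the same number of clean reads for each library. The deposited values carry no counts, so the number of reads behind each gene's value is unknown here and no counting interval is given. The sources used here do not name the aligner, genome build or annotation. Beside the values, the deposited table has 3 columns of the authors' own comparison (p-value, q-value and log2 fold change), which were not used.

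Values were taken as log2(FPKM + 0.1) and fitted with limma 3.58.1 (R 4.3.3), using a mean-variance trend and group as the only term. The fit covered 14006 genes that reached 0.5 FPKM in 3 or more libraries, and p-values were adjusted by Benjamini-Hochberg over all of them. For low genes this scale understates a change. The fit was tested on simulated data with known changes. The simulated noise was independent between genes, so a shift shared by many genes of a library, as in sham replicate 3, was not covered. An exact permutation test of 3 libraries against 3 cannot give a p below 0.10 and was therefore not used for single genes. The 10 genes, the gene lists and the comparisons were chosen with earlier results of these data known. Named genes are the 10 transcription factors, the 2 of highest mean level in each pathway list and any called there, the highest in each marker list, any defining marker at 0, and the 3 nearest in profile. Onecut2, Cbfb, Tlx1, Whrn, Slc17a7, Ntrk3, Pvalb and Fabp7 were named after their values were seen. The result of 1 marker list is not reported here. The alternatives were other pseudocounts, filters, scalings, variance models and thresholds, a replicate block, and leaving out each library. Promoter sequences are from RefSeq (GRCm38.p6), matched by gene ID for all 10 genes. Python 3.11.15, NumPy 2.4.6, pandas 2.3.3 and matplotlib 3.10.9 were used for the rest.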

Additional observations from a re-analysis of the deposited data

How the results depend on the processing

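With other pseudocounts, filters, scalings and variance models and with a replicate block, all 100 values of the 10 genes kept their sign and none was called. The smallest unadjusted p among these was 0.0337, for Tlx3 under quantile normalization (adjusted p = 0.999 from limma). Leaving out 1 library kept the sign in 51 of 60 values, and leaving out sham replicate 3 together with 1 LAS library, a choice made after seeing the data, kept it in 25 of 30. Over both, the log2 fold change ran from -0.078 to 0.042 for Runx1, from -0.29 to 0.051 for Runx3, from -0.10 to 0.11 for Prdm12, from -0.14 to 0.11 for Shox2 and from -0.27 to 0.086 for Etv1. It ran from 0.092 to 0.15 for Isl1, from 0.039 to 0.11 for Pou4f1, from 0.027 to 0.27 for Pou4f2, from -0.063 to -0.0080 for Drgx and from 0.14 to 0.36 for Tlx3. Without sham replicate 3, Prdm12 was at -0.0083 when LAS replicate 1 was also left out, at -0.10 for replicate 2 and at -0.013 for replicate 3, and Shox2 was at 0.032 for replicate 1 and 0.11 for replicate 2. Among all tested genes, 0 were called with each single library left out, and 5 and 1 without sham replicate 3 and LAS replicate 2 or 3, none of them among the 10. Unadjusted p-values of at most 0.05 numbered 1425 without sham replicate 3. The cause of these shifts was not tested. With the replicate number as a block, 0 of the 10 genes and 0 genes in all were called, while 321 had an unadjusted p up to 0.05. Same-numbered libraries correlated at -0.41, 0.24 and -0.15 in their deviations from the group means. Sham and LAS libraries of different numbers correlated at -0.29 to 0.43. With 3 libraries per group, these values cannot settle whether the numbers pair the libraries. The order of mean levels was unchanged without each library and with medians.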
